A study of Homo sapiens with 6 samples.

Results

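The genes described here handle zinc and copper in SKOV3, a long-established line of human ovarian cancer cells. They were chosen by their known function, though with earlier results of these data known, as 34 members of 58735 entries measured. The members are 8 metallothionein genes with the regulator MTF1, 8 zinc exporters (SLC30 family), 11 zinc importers (SLC39 family), and 6 genes of copper uptake and delivery. The study sequenced RNA from floating spheres, titled stem cells (3 libraries), and from sphere-differentiated cells, titled adherent cells (3 libraries). Floating spheres grew without attachment in DMEM/F12 medium with the B27 serum replacement. The paper's methods for sphere assays also list insulin and the growth factors EGF and bFGF in this medium. Sphere-differentiated cells came from such spheres, moved to DMEM with fetal bovine serum in plates to which they attached. No gene was altered and no drug was given in either group. Attachment, medium, serum and any insulin or growth factors added differed together between the groups, so their parts in any difference cannot be told apart. The labels do not say whether the 3 libraries of a group came from separate cultures, and the p-values measure only the spread between these libraries.

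Metallothioneins are small proteins, rich in cysteine, that bind zinc, copper and cadmium. When free zinc rises, the transcription factor MTF1 binds short metal response elements in promoters and turns on metallothionein genes and the zinc exporter SLC30A1. Most SLC30 transporters move zinc out of the cytosol, to the outside or into organelles, and SLC39 transporters move it into the cytosol. Copper enters through SLC31A1 and is handed by the chaperone ATOX1 to the pumps ATP7A and ATP7B, and by the chaperone CCS to the enzyme SOD1.

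The metallothionein genes are near copies of each other, so the coding sequences of the 3 with fragments are shown first, in the direction of the transcript, with every cysteine codon (tgc or tgt) in capitals. They were read from GENCODE 29 transcripts on GRCh38, plus strand, and each is split over 3 coding exons: MT2A within chr16:56608656-56609354, MT1X within chr16:56682541-56684049 and MT1F within chr16:56658059-56659164.
MT2A: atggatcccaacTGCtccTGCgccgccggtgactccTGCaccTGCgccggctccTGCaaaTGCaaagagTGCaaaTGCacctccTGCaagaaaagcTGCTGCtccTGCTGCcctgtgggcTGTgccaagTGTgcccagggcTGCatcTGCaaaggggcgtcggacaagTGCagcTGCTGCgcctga
MT1X: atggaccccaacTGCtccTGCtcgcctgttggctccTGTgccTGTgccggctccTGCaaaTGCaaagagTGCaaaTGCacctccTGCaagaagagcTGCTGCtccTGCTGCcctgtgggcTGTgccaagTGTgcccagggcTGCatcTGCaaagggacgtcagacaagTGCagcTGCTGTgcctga
MT1F: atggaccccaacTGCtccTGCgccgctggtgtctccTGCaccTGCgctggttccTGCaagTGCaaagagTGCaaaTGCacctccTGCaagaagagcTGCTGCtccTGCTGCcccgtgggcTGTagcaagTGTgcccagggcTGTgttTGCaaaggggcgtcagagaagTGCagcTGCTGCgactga
Each of the 8 metallothionein members had a coding sequence of 186 bases, with 61 codons before the stop, of which 20 were cysteine codons. Identity was 92.47% between MT1X and MT2A, 91.4% between MT1F and MT2A and 88.71% between MT1F and MT1X, and over all pairs of the 8 it ran between 88.71% and 95.16%. Despite this likeness, no stretch of 100 bases in the exons of MT2A or MT1F occurred in another annotated gene, and for MT1X 11.34% of such stretches did, all shared with AC026461.1, a transcript listed at 0 in every library.

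Promoters are shown next because the metal response element is the sequence through which MTF1 acts. They are the 250 bases before the RefSeq start (GRCh38.p14), printed in the direction of the gene, for the 3 metallothionein members with a promoter in the RefSeq table and for SLC30A1: MT2A at chr16:56608334-56608583 (plus strand), MT1X at chr16:56682220-56682469 (plus strand), MT1H at chr16:56669564-56669813 (plus strand) and SLC30A1 at chr1:211579162-211579411 (minus strand). Capitals mark each match to the core of the element, TGCACNC or TGCGCNC on either strand. No 2 capital runs overlap in these 4 sequences.
MT2A: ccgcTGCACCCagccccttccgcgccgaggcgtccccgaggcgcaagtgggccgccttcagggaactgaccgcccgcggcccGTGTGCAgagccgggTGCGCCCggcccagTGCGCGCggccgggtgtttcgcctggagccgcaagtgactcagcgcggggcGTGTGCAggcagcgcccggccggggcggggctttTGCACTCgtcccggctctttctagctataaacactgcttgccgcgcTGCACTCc
MT1X: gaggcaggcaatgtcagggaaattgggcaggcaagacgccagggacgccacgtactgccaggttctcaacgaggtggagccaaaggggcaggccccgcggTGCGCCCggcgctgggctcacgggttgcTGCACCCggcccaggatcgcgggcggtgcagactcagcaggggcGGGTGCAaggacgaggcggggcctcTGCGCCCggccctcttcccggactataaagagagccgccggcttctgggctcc
MT1H: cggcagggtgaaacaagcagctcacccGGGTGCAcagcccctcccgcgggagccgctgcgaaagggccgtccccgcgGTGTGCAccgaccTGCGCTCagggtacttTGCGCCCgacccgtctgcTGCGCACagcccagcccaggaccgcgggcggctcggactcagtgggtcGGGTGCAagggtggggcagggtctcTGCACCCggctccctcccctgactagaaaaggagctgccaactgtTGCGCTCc
SLC30A1: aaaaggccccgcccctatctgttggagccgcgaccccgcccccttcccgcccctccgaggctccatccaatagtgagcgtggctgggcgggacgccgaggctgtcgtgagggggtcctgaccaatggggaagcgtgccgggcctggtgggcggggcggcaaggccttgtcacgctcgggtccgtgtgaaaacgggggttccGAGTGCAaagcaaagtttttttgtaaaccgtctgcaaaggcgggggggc
The MT1H promoter held 8 matches, that of MT2A 7, that of MT1X 4 and that of SLC30A1 1. Of 35116 RefSeq promoters of this length, 24.83% held at least 1 match, 6.481% at least 2, 0.3702% at least 4 and 0.03132% at least 7. A match is a run of letters, and binding was not measured. Promoters were in the table for 26 of the 34 members, of which 16 had at least 1 match in some start, and MTF1 itself had 0. This count is per gene, over any of its starts, while the shares above are per promoter, so they cannot be set against each other. CCS and ATOX1 had 2 matches each, in both cases on opposite strands of nearly the same bases.

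**Figure D1:**
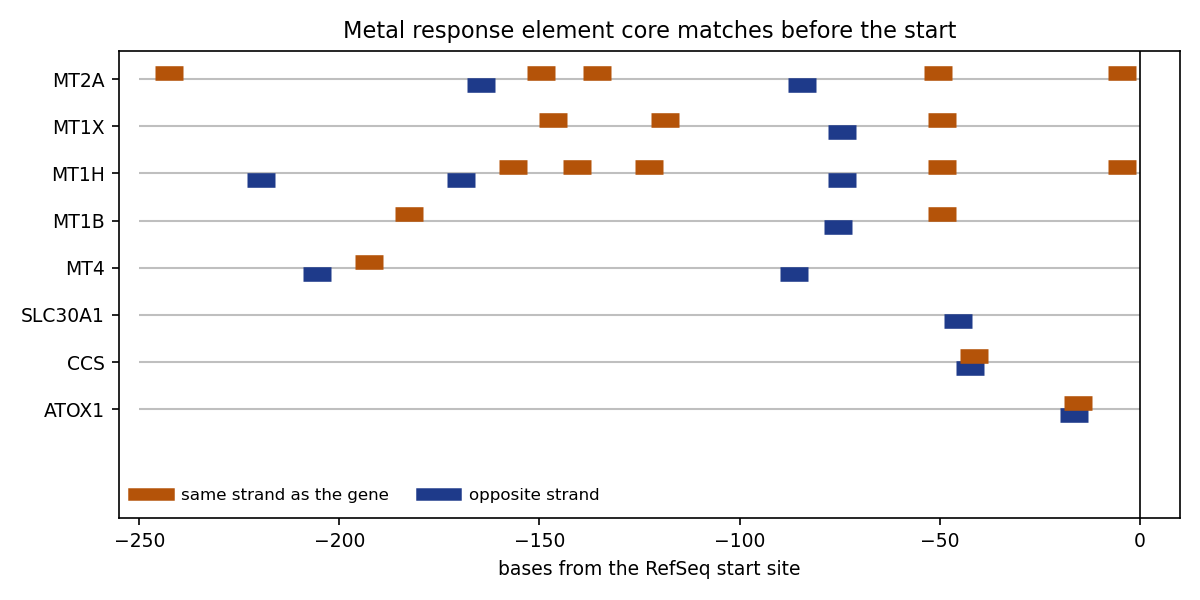
Positions of metal response element core matches (orange, same strand as the gene; blue, opposite strand) in the 250 bases before the RefSeq start site, in bases from the start (x axis), for 8 genes (y axis). MT2A with 7 matches and MT1H with 8 carry them along most of the window, and SLC30A1 has 1.

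Levels are given in FPKM, fragments scaled by the depth of the library and the merged exon length of all annotated transcripts of the gene. The transcripts in these cells may be shorter than that length, so levels of different genes compare only roughly. Differences between groups for the same gene share the length. Each library held 14725462 to 16376331 fragments in genes of known length. Differences are log2 fold changes of FPKM + 0.5, floating sphere minus sphere-differentiated, fitted with limma across the 15719 genes that averaged at least 0.5 FPKM. A gene was called where its p, adjusted over all those genes by the Benjamini-Hochberg method, was under 0.05. The background was wide: 15.8% of all genes tested were called higher in floating spheres and 17.8% lower, and the 3 libraries of one group lay wholly above those of the other for 24.3% (floating spheres above) and 27.2% (floating spheres below). Left without sphere-differentiated replicate 2 or 3, the comparison called 3032 or 2766 genes, against 5279 with all libraries. The epithelial markers KRT8, KRT18, KRT7, ERBB2 and PAX8 were above 0 in every library, while WT1 was listed at 0 and MUC16 did not exceed 0.0499 FPKM.

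Of the 34 members, 27 passed the filter on low values, which makes a count over them one over detected genes. Among these, 6 were called higher in floating spheres (22.2%, against 15.8% of all genes tested) and 5 were called lower (18.5%, against 17.8%). The libraries of the groups did not overlap for 8 members with floating spheres above (29.6%, against 24.3%) and for 8 with floating spheres below (29.6%, against 27.2%). The median log2 fold change was 0.03 over the 27 members (-0.029 with TPM scaling and -0.034 with quantile normalization) and 0.0032 over all genes tested. The members as a whole stood near the background, and the differences lay in single genes: MT2A, MT1X, MT1F, SLC39A8, CCS and ATOX1 were higher in floating spheres, and SLC39A6, SLC39A14, SLC30A6, SLC30A4 and ATP7B were lower. Without sphere-differentiated replicate 3, 3 members were called higher and 3 lower.

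**Figure D2:**
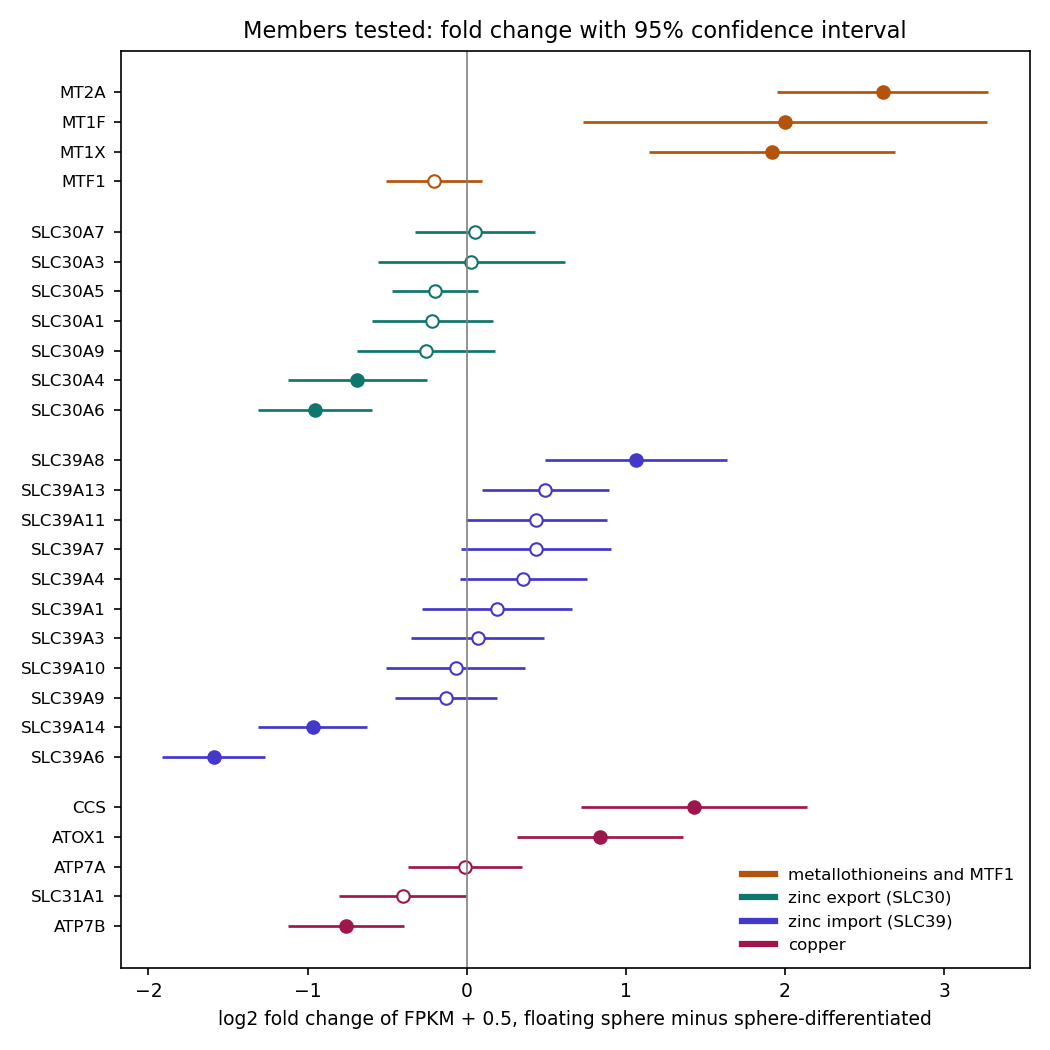
Log2 fold change of FPKM + 0.5, floating sphere minus sphere-differentiated (x axis), with its 95% confidence interval, for the 27 members tested (y axis), coloured by group. Filled points passed an adjusted p of 0.05 in limma: 6 lie to the right of 0, with MT2A farthest at 2.61, and 5 to the left, with SLC39A6 farthest at -1.59.

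Metallothioneins had the largest differences among the members: of the 9 genes of this group, 4 were tested, 3 of them were called higher in floating spheres and 0 lower. The 3 were 75% of those tested, against 15.8% called higher and 17.8% called lower among all genes tested. MT2A, the main metallothionein of most human cells, had 675, 1366 and 1297 FPKM in floating spheres, against 188, 163 and 169 FPKM in sphere-differentiated cells. All floating sphere libraries lay above all sphere-differentiated ones, and floating sphere replicate 1 was the lowest of its group. The means were 1112 ± 381 and 173 ± 12.8 FPKM (SD, n = 3 each), a 6.42-fold difference of means, with a log2 fold change of 2.61 (SE 0.28, 95% interval 1.95 to 3.28, adjusted p = 0.0013). In rank by FPKM among all entries, MT2A stood at 33, 15 and 12 in floating spheres and at 137, 147 and 146 in sphere-differentiated cells. It thus ranked high in the spheres, with 14685, 28934 and 28629 fragments, against 3859, 3037 and 3623 in sphere-differentiated cells. In bulk RNA, more cells that express a gene and more RNA per cell cannot be told apart.

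MT1X, a second metallothionein gene of the same cluster, had 10.0, 27.8 and 19.9 FPKM in floating spheres, against 4.10, 4.68 and 4.25 FPKM in sphere-differentiated cells. The groups did not overlap, and replicate 1 was again the lowest of the floating spheres. Its log2 fold change was 1.92 (SE 0.33, 95% interval 1.14 to 2.69, adjusted p = 0.0056). MT1F had 3.89, 20.4 and 7.57 FPKM in floating spheres, against 2.34, 0.997 and 2.22 FPKM in sphere-differentiated cells. Here the groups stood close, since the lowest floating sphere library had 123 fragments and the highest sphere-differentiated library 70, and replicate 2 was far the highest of the floating spheres. The log2 fold change of MT1F was 2.00 (SE 0.54, 95% interval 0.73 to 3.27, adjusted p = 0.027). It was 1.40 without floating sphere replicate 2, and the call was lost without floating sphere replicate 3 (adjusted p = 0.060) and without sphere-differentiated replicate 1, 2 or 3 (0.054, 0.10 and 0.059).

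The other 5 metallothionein members, MT1A, MT1E, MT1G, MT1H and MT1M, were listed at 0 in all 6 libraries. With 3 fragments taken as the limit that a count of 0 allows, their levels could reach 0.446 to 0.528 FPKM for the short MT1A and 0.168 to 0.199 FPKM for MT1E, depending on the library. These limits cover counting error only, and how fragments that match several genes were treated is not given in the sources used here. MT1H, whose promoter showed the most element matches, was thus listed at 0 in libraries where MT2A ranked among the most abundant transcripts. Of 11 further metallothionein genes and pseudogenes, 10 were at 0 everywhere and none was tested, MT1P1 reaching 0.664 FPKM.

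The metallothionein cluster spans 119148 bases on chromosome 16, between 56565049 (MT4) and 56684196 (MT1X) on hg38, and GENCODE 29 annotates 19 genes in it. Of the 19, 15 were listed at 0 in every library, among them AC026461.2 and AC026461.1. Besides MT2A, MT1X and MT1F, only AC026461.3 had fragments. This long noncoding RNA beside MT2A, on the other strand, had 0.269, 0.276 and 0.133 FPKM in floating spheres and was listed at 0 in all sphere-differentiated libraries, too low to be tested. The nearest protein-coding genes tested on each side were BBS2, a part of the ciliary BBSome, and NUP93, a nuclear pore protein. BBS2 had a log2 fold change of 0.52 (adjusted p = 0.023) and NUP93 one of -0.53 (adjusted p = 0.078).

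Across the cluster, MT2A held nearly all of the signal. Its share of the summed FPKM of the 8 metallothionein members was 96.6% to 98.0% in floating spheres and 96.3% to 96.7% in sphere-differentiated cells. The sum itself was 688, 1414 and 1325 FPKM in floating spheres, against 194, 169 and 176 FPKM in sphere-differentiated cells. The ratio of MT2A to MT1X was 67.3, 49.1 and 65.1 in floating spheres and 45.8, 34.8 and 39.9 in sphere-differentiated cells, so the groups did not overlap in it. They did overlap in the ratio of MT2A to MT1F, which was 66.9 to 173.6 in floating spheres and 76.4 to 164 in sphere-differentiated cells, and in that of MT1X to MT1F, which was 1.36 to 2.63 in floating spheres and 1.75 to 4.70 in sphere-differentiated cells.

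MTF1, the zinc sensor, had 5.00, 4.98 and 4.28 FPKM in floating spheres, against 5.27, 5.83 and 5.56 FPKM in sphere-differentiated cells. Its floating sphere libraries all lay below the others, by a small margin. The log2 fold change was -0.21 (95% interval -0.51 to 0.10, adjusted p = 0.25), which does not pass the test, and it was -0.018 (adjusted p = 0.92) after the correction for GC content and exon length. The transcript of the regulator therefore had no called difference, and the ratio of MT2A to MTF1 was 135, 274 and 303 in floating spheres, against 35.6, 28.0 and 30.5 in sphere-differentiated cells.

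**Figure D3:**
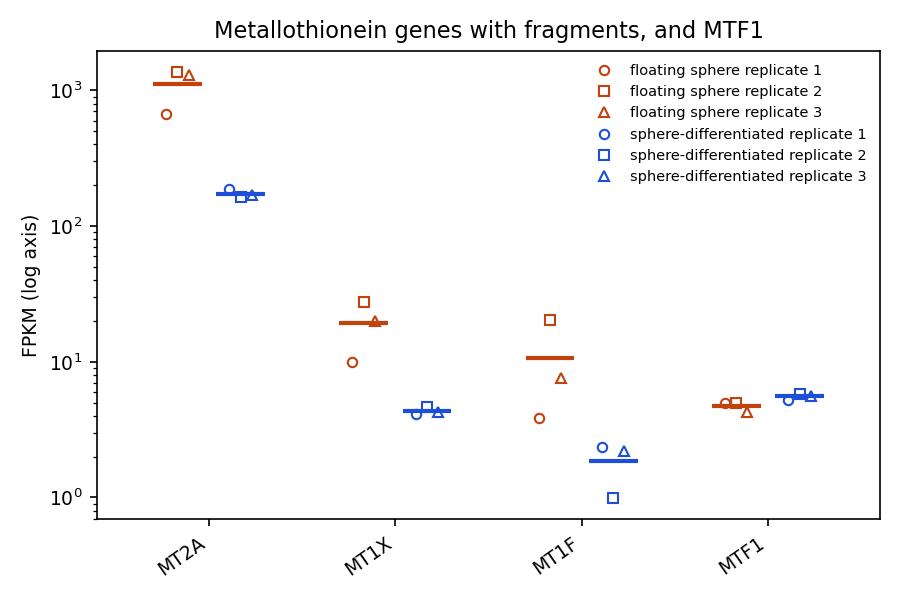
FPKM (y axis, log scale) of the 3 metallothionein members with fragments and of MTF1 in each library, floating spheres in orange and sphere-differentiated cells in blue; bars are group means (n = 3 each). MT2A, MT1X and MT1F lie higher in every floating sphere library, with replicate 1 the lowest of each trio, and MTF1 lies slightly lower.

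Zinc exporters had no member called higher, with 2 of 7 tested called lower (28.6%, against 17.8% of all genes tested). Their median log2 fold change was -0.22, which became 0.018 once GC content and exon length were corrected for. SLC30A1, the exporter of the plasma membrane and a textbook MTF1 target, had 11.4, 15.1 and 15.8 FPKM in floating spheres, against 15.1, 18.0 and 15.9 FPKM in sphere-differentiated cells. The groups overlapped, and the log2 fold change was -0.22 (95% interval -0.60 to 0.17, adjusted p = 0.34). Its interval lay wholly below that of MT2A, which was 1.95 to 3.28.

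SLC30A6 forms a complex with SLC30A5 that supplies zinc to enzymes in the early secretory pathway. It had 6.52, 7.40 and 8.58 FPKM in floating spheres, against 13.3, 16.7 and 15.0 FPKM in sphere-differentiated cells, with no overlap. The means were 7.50 ± 1.04 and 15.0 ± 1.72 FPKM (SD, n = 3 each), with a log2 fold change of -0.95 (SE 0.15, 95% interval -1.31 to -0.60, adjusted p = 0.0044). Its partner SLC30A5 had 12.7, 11.8 and 11.9 FPKM in floating spheres, against 13.8, 14.0 and 14.2 FPKM in sphere-differentiated cells. The partner too had no overlap between groups, though its log2 fold change of -0.20 (95% interval -0.47 to 0.07, adjusted p = 0.22) was not called.

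SLC30A4, an exporter into endosomal vesicles, had 0.909, 0.965 and 1.26 FPKM in floating spheres, against 1.69, 2.20 and 2.06 FPKM in sphere-differentiated cells. The groups did not overlap at these low levels, and the log2 fold change was -0.69 (SE 0.19, adjusted p = 0.027), a size that the added 0.5 FPKM makes smaller. The call was lost without floating sphere replicate 1 (adjusted p = 0.053) and without sphere-differentiated replicate 1, 2 or 3 (0.051, 0.096 and 0.11). For SLC30A3, SLC30A7 and SLC30A9, known from synaptic vesicles, the Golgi and mitochondria, the groups overlapped, with log2 fold changes of 0.03 (95% interval -0.56 to 0.62), 0.05 (-0.33 to 0.43) and -0.26 (-0.69 to 0.18). SLC30A2 was not tested, having 0, 2 and 3 fragments in floating spheres and 1, 0 and 0 in sphere-differentiated cells.

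In the zinc importers the order of the most abundant genes differed between the groups. All 11 SLC39 members were tested, of which 1 was called higher and 2 lower. These shares were 9.1% and 18.2%, against 15.8% and 17.8% of all genes tested. The median log2 fold change of the 11 was 0.19. It was 0.069 at a minimum mean of 5 FPKM, 0.090 with quantile normalization and 0.29 with voom. SLC39A6, a plasma membrane importer first known as an oestrogen-regulated gene of breast cancer cells, had 49.7, 51.9 and 47.4 FPKM in floating spheres, against 140, 169 and 145 FPKM in sphere-differentiated cells. The groups were far apart and the floating spheres close together. The means were 49.7 ± 2.23 and 151 ± 15.4 FPKM (SD, n = 3 each), with a log2 fold change of -1.59 (SE 0.14, 95% interval -1.92 to -1.27, adjusted p = 0.00075). SLC39A10, its known partner in a complex, had a log2 fold change of -0.07 (95% interval -0.51 to 0.37, adjusted p = 0.80), with groups that overlapped.

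SLC39A8, which carries zinc, manganese and cadmium, went the other way. It had 62.0, 115 and 103 FPKM in floating spheres, against 37.3, 47.8 and 44.4 FPKM in sphere-differentiated cells. No library overlapped, and floating sphere replicate 1 was the lowest of its group, as it was for MT2A, MT1X and MT1F. The means were 93.4 ± 27.8 and 43.1 ± 5.37 FPKM (SD, n = 3 each), with a log2 fold change of 1.06 (SE 0.25, 95% interval 0.49 to 1.64, adjusted p = 0.015). The call was lost without sphere-differentiated replicate 1 (adjusted p = 0.057) or 3 (0.053).

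SLC39A14, the closest relative of SLC39A8 and a carrier of zinc, manganese and iron, had 22.9, 30.5 and 27.8 FPKM in floating spheres, against 52.0, 54.4 and 52.8 FPKM in sphere-differentiated cells. The groups did not overlap, and the log2 fold change was -0.97 (SE 0.15, 95% interval -1.31 to -0.63, adjusted p = 0.0035). These related carriers thus differed in opposite directions. Within a library, the ratio of SLC39A8 to SLC39A14 was 2.71, 3.78 and 3.70 in floating spheres, against 0.716, 0.878 and 0.841 in sphere-differentiated cells, so that SLC39A8 was the more abundant of the pair in every floating sphere library and the less abundant in every sphere-differentiated one.

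The ratio of SLC39A8 to SLC39A6 was 1.25, 2.22 and 2.17 in floating spheres, against 0.267, 0.283 and 0.306 in sphere-differentiated cells. SLC39A6 made up 22.1%, 17.9% and 18.2% of the summed FPKM of the 11 importers in floating spheres, against 45.0%, 50.5% and 46.0% in sphere-differentiated cells. For SLC39A8 these shares were 27.6%, 39.6% and 39.5% in floating spheres, against 12.03%, 14.3% and 14.1% in sphere-differentiated cells. By these FPKM values, the leading importer transcript was SLC39A8 in floating spheres and SLC39A6 in sphere-differentiated cells. SLC39A1 is uncertain in this order, the shares and the sum, as 69.1% of its exon length overlaps other annotated genes. The sum itself was lower in floating spheres, at 225, 291 and 260 FPKM, against 310, 334 and 315 FPKM in sphere-differentiated cells.

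In floating spheres the order by mean FPKM ran from SLC39A8 over SLC39A6, SLC39A7 and SLC39A14 to SLC39A9, and the ranges of SLC39A6 and SLC39A7 overlapped. In sphere-differentiated cells it ran from SLC39A6 over SLC39A14, SLC39A8 and SLC39A7 to SLC39A9, and the ranges of SLC39A8 and SLC39A7 overlapped. SLC39A7, which releases zinc from the endoplasmic reticulum, averaged 46.1 ± 5.12 FPKM in floating spheres and 34.5 ± 8.12 FPKM in sphere-differentiated cells (SD, n = 3 each), with a log2 fold change of 0.44 (95% interval -0.04 to 0.91, adjusted p = 0.13). SLC39A13, a carrier of the Golgi and its vesicles, had 9.44, 12.4 and 8.99 FPKM in floating spheres, against 8.16, 6.21 and 6.99 FPKM in sphere-differentiated cells. Its groups did not overlap, but the log2 fold change of 0.49 (95% interval 0.10 to 0.89) missed the threshold (adjusted p = 0.060). SLC39A11 likewise did not overlap, with floating spheres above, and had a log2 fold change of 0.44 (95% interval -0.00 to 0.88, adjusted p = 0.11).

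Groups overlapped for the remaining importers. SLC39A4, the carrier of dietary zinc in the gut, had a log2 fold change of 0.36 (95% interval -0.04 to 0.75), SLC39A9 of the Golgi one of -0.13 (-0.45 to 0.19), and SLC39A3 of the plasma membrane one of 0.07 (-0.35 to 0.49). SLC39A1, another plasma membrane carrier, had 0.19 (-0.28 to 0.66), but 69.1% of its exon length overlaps the annotated AL358472.7 or CREB3L4, so its low counts are uncertain. None of 6 further zinc transporter genes (SLC30A8, SLC30A10, SLC39A2, SLC39A5, SLC39A12 and TMEM163) reached the level tested.

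**Figure D4:**
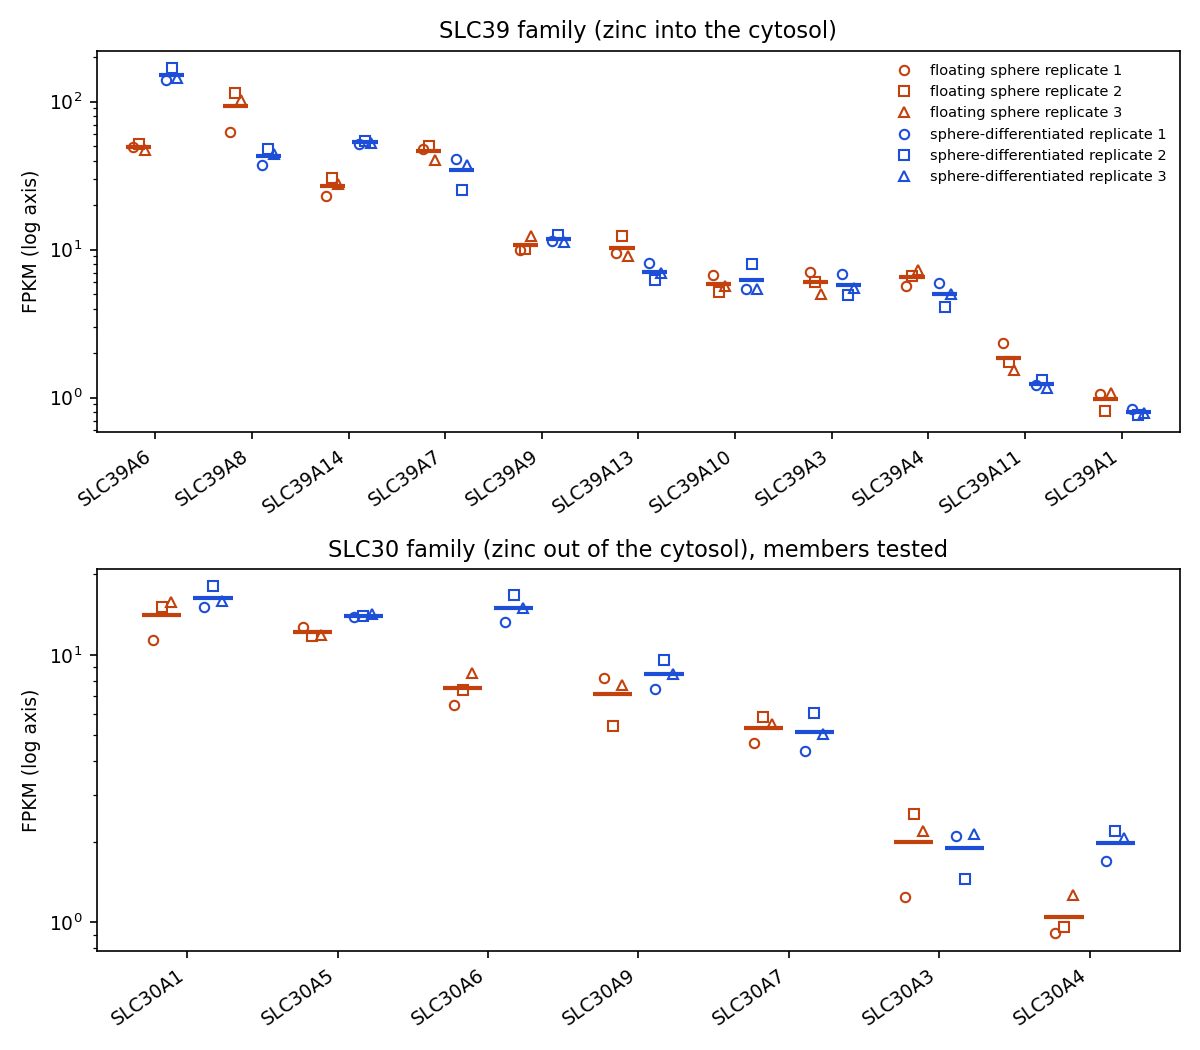
FPKM (y axis, log scale) of the 11 SLC39 importers (upper panel) and the 7 SLC30 exporters tested (lower panel) in each library, floating spheres in orange and sphere-differentiated cells in blue; bars are group means (n = 3 each). SLC39A6, SLC39A14, SLC30A6 and SLC30A4 lie lower in every floating sphere library, and SLC39A8 lies higher.

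Of the 5 copper members tested, both chaperones were called higher in floating spheres and 1 pump was called lower. These shares were 40% and 20%, against 15.8% and 17.8% of all genes tested. The median log2 fold change of the 5 was -0.01, and 0.29 after the GC and length correction. CCS, which loads copper into SOD1, had 14.7, 13.8 and 11.8 FPKM in floating spheres, against 7.07, 2.65 and 5.23 FPKM in sphere-differentiated cells. The groups were clearly apart, and sphere-differentiated replicate 2 was the lowest of all. The means were 13.4 ± 1.49 and 4.98 ± 2.22 FPKM (SD, n = 3 each), with a log2 fold change of 1.43 (SE 0.30, 95% interval 0.72 to 2.14, adjusted p = 0.011). Of the exon length of CCS, 10.6% overlaps CCDC87 on the other strand, and the strand setting of the counting is not given.

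ATOX1, which carries copper to the Golgi pumps, had 7.66, 6.20 and 5.79 FPKM in floating spheres, against 4.53, 2.41 and 3.61 FPKM in sphere-differentiated cells. Again the groups did not overlap, and sphere-differentiated replicate 2 was the lowest. The log2 fold change was 0.84 (SE 0.22, 95% interval 0.32 to 1.36, adjusted p = 0.025). It was not called without floating sphere replicate 1 (adjusted p = 0.062) or without sphere-differentiated replicate 2 or 3 (0.068 and 0.072).

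ATP7B, the copper pump altered in Wilson disease, had 1.36, 1.74 and 1.80 FPKM in floating spheres, against 3.15, 2.96 and 3.17 FPKM in sphere-differentiated cells. With no overlap, its log2 fold change was -0.76 (SE 0.15, 95% interval -1.12 to -0.40, adjusted p = 0.0098), and without sphere-differentiated replicate 3 the adjusted p was 0.056. ATP7A, the related pump altered in Menkes disease, had 3.96, 3.38 and 3.36 FPKM in floating spheres, against 3.10, 4.14 and 3.61 FPKM in sphere-differentiated cells. The pump of Menkes disease had overlapping groups and a log2 fold change of -0.01 (95% interval -0.37 to 0.35, adjusted p = 0.96). The 2 pumps' intervals did not overlap, being -1.12 to -0.40 for ATP7B and -0.37 to 0.35 for ATP7A.

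SLC31A1, the main copper importer, had 17.6, 23.7 and 26.0 FPKM in floating spheres, against 28.1, 31.6 and 28.8 FPKM in sphere-differentiated cells. Floating spheres lay below without overlap, but the log2 fold change of -0.40 (95% interval -0.80 to -0.01) was not called (adjusted p = 0.11). Within libraries, the ratio of SLC31A1 to ATP7B was 13.0 to 14.5 in floating spheres and 8.94 to 10.7 in sphere-differentiated cells. SLC31A2, a related protein of vesicles, was below the level tested with 6, 19 and 8 fragments in floating spheres and 7, 7 and 14 in sphere-differentiated cells, and 63.1% of its exon length overlaps FKBP15.

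**Figure D5:**
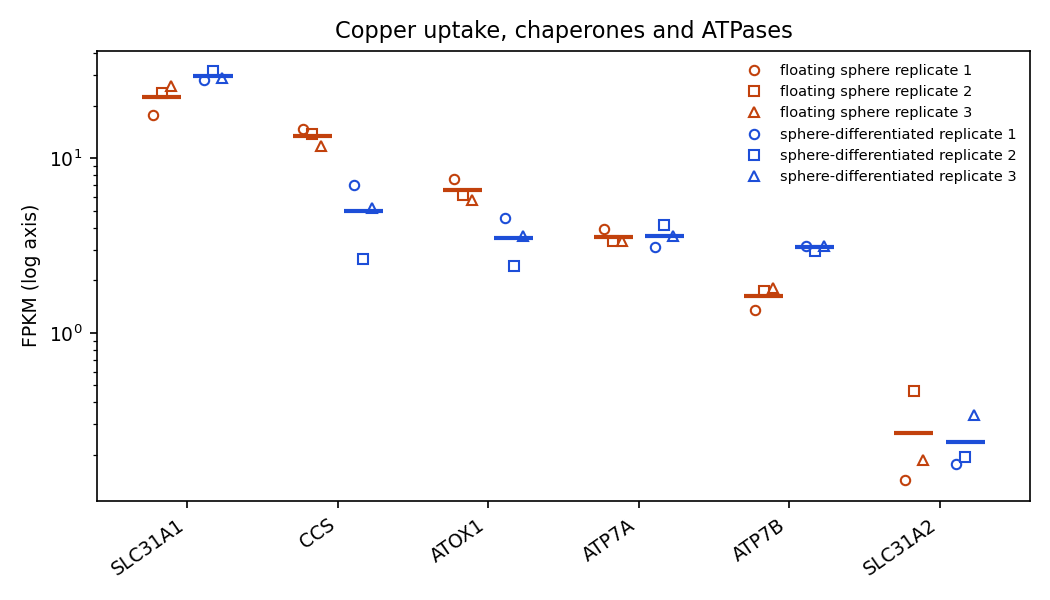
FPKM (y axis, log scale) of the 6 copper members in each library, floating spheres in orange and sphere-differentiated cells in blue; bars are group means (n = 3 each). CCS and ATOX1 lie higher in every floating sphere library, ATP7B and SLC31A1 lie lower, and ATP7A and SLC31A2 overlap.

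Other genes of the same pathways were read from lists set by function, with earlier results of these data known. Of 18 genes that deliver copper to mitochondria or otherwise handle it, all tested, 2 were called higher and 3 lower, with a median log2 fold change of 0.02. These shares were 11.1% and 16.7%, against 15.8% and 17.8% of all genes tested. SOD1, the enzyme that CCS serves, had 192, 106 and 128 FPKM in floating spheres, against 99.99, 90.1 and 95.03 FPKM in sphere-differentiated cells. It lay above without overlap but was not called, with a log2 fold change of 0.54 (adjusted p = 0.10). The ratio of CCS to SOD1 was 0.0765, 0.129 and 0.0917 in floating spheres, against 0.0707, 0.0294 and 0.0550 in sphere-differentiated cells.

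Among the 4 STEAP genes of this list, which encode proteins of the metalloreductase family, 1 was called lower and 1 higher. STEAP4 had 6.01, 6.59 and 14.0 FPKM in floating spheres, against 68.0, 95.2 and 73.6 FPKM in sphere-differentiated cells, and its log2 fold change was -3.17 (SE 0.31, adjusted p = 0.00099). STEAP3 averaged 16.3 ± 2.36 FPKM in floating spheres and 7.36 ± 0.348 FPKM in sphere-differentiated cells (SD, n = 3 each), with a log2 fold change of 1.08 (adjusted p = 0.0024). STEAP1 and STEAP2 had overlapping groups and no call, with log2 fold changes of -0.14 and 0.05 (adjusted p = 0.63 and 0.90). The metal ion importer SLC11A2 and the mitochondrial ferredoxin FDX1 were both lower in floating spheres, with log2 fold changes of -0.85 and -0.85 (adjusted p = 0.0053 and 0.013).

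Copper enzymes of the secretory pathway receive copper from ATP7A or ATP7B. Of 12 such genes 7 were tested, of which 4 were called higher and 2 lower, with a median log2 fold change of 0.44. These shares were 57.1% and 28.6%, against 15.8% and 17.8% of all genes tested. LOX, lysyl oxidase, which crosslinks collagen and elastin, had 60.4, 183 and 153 FPKM in floating spheres, against 14.8, 17.7 and 15.5 FPKM in sphere-differentiated cells, with replicate 1 again the lowest sphere library. Its log2 fold change was 2.87 (SE 0.38, adjusted p = 0.0025). The related LOXL2 had a log2 fold change of 1.66 (adjusted p = 0.013). The amine oxidases AOC2 and AOC3 were lower in floating spheres at low levels, with log2 fold changes of -1.44 and -1.11 (adjusted p = 0.0075 and 0.018). AOC3 averaged 0.297 FPKM in floating spheres, under the filter of 0.5 FPKM. It was tested only through its mean of 1.21 FPKM in sphere-differentiated cells, and the share called lower includes it.

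A list of 8 further genes linked to MTF1, partly from work in mouse, had 5 tested, of which 3 were called higher and 2 lower. These shares were 60% and 40%, against 15.8% and 17.8% of all genes tested, and the median log2 fold change was 0.62. NDRG1, a stress-responsive gene that MTF1 has been tied to in mouse cells, had 75.7, 338 and 157 FPKM in floating spheres, against 19.0, 17.4 and 18.1 FPKM in sphere-differentiated cells. Its log2 fold change was 3.09 (SE 0.47, adjusted p = 0.0037). The order of its sphere libraries was shared by MT2A, MT1X, MT1F, SLC39A8, LOX, LOXL2 and PECAM1. Of these, SLC39A8, LOX, LOXL2 and PECAM1 were not listed here for MTF1, and the cause of the shared order was not tested. SELENOH, a nuclear selenoprotein, and TXNRD2, the mitochondrial thioredoxin reductase, had log2 fold changes of 0.98 and 0.62 (adjusted p = 0.0044 and 0.038). FTH1, the ferritin heavy chain that stores iron, averaged 1865 ± 121 FPKM in floating spheres and 3003 ± 182 FPKM in sphere-differentiated cells (SD, n = 3 each), and its log2 fold change was -0.69 (adjusted p = 0.033). As 62.4% of its exon length overlaps BEST1 on the other strand, the level of FTH1 is uncertain to that extent.

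Markers of other cell types were summed for comparison. The summed FPKM of 6 fibroblast markers was 3.50 to 5.31 in floating spheres and 2.19 to 2.38 in sphere-differentiated cells, with COL3A1 called higher. The fibroblast marker DCN had 27, 44 and 20 fragments in floating spheres and 0 in every sphere-differentiated library. The summed level of 5 endothelial markers was 4.67 to 7.61 FPKM in floating spheres and 2.56 to 3.18 FPKM in sphere-differentiated cells, nearly all of it PECAM1, while CDH5 and KDR were at 0. PECAM1 was called higher in floating spheres, with a log2 fold change of 0.99 (adjusted p = 0.0087). For 6 leukocyte markers the sums were 8.55 to 15.9 FPKM in floating spheres and 8.37 to 11.5 FPKM in sphere-differentiated cells, nearly all of it CD14, while PTPRC and LYZ were at 0. In FPKM, CD14 thus stood above some called members, such as ATOX1, ATP7B and SLC30A4, and PECAM1 stood above SLC30A4. The order depends on the exon length used. In floating spheres ATOX1 had 673, 530 and 515 fragments, against 258, 350 and 498 for CD14. In sphere-differentiated cells ATOX1 had 376, 181 and 311 and ATP7B 482, 411 and 504, against 257, 305 and 247 for CD14. Of 8 ovarian and epithelial markers 6 were tested, with 0 called higher and KRT18, KRT7 and EPCAM called lower in floating spheres (50%, against 17.8% of all genes tested). The part of these shifts in the metal genes' differences was not tested.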

How the data were processed

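SKOV3 floating spheres and sphere-differentiated cells (3 libraries each) were analysed from the FPKM values that the authors deposited for each gene and library. The submitters' processing notes name hg38, featureCounts 1.5.0-p3 and DESeq2 1.20.0. Aligner, annotation release and strand setting: not given in the sources used here. Multiplying FPKM by merged exon length of GENCODE 29, which held 99.954% of the names, gave whole fragments within 0.01 for 100% of values above 0.

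Genes that averaged 0.5 FPKM or more were fitted with limma 3.58.1 (R 4.3.3, intensity trend, group as the only term) on log2(FPKM + 0.5), with Benjamini-Hochberg adjustment at 0.05. The fit was tested on simulated data. The labels name no pairs and same-numbered libraries did not deviate alike, so the main fit used no block. With 3 libraries per group, this cannot settle whether libraries were paired. All 34 members are named. Of other lists, up to 4 called genes with the smallest adjusted p are named, with the genes of the metallothionein cluster. SOD1, STEAP1, STEAP2, MT1P1, the further zinc transporter genes, BBS2, NUP93, genes with overlapping exons and the markers were named beyond this rule. Members and lists were chosen with earlier results of these data known. Exon overlaps and shared stretches of 100 bases were counted in GENCODE 29. Promoters came from RefSeq. Alternatives covered the pseudocount, the filter, scaling, the replicate block, the intensity trend, voom on recovered fragments, each library left out, and a correction for GC content and length.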

Additional observations from a re-analysis of the deposited data

How the results depend on the processing

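Under 18 alternatives, 17 of them set beforehand and 1 (GC content and length) added after seeing the data, 6 of the 11 called members kept their call and direction: MT2A, MT1X, CCS, SLC30A6, SLC39A6 and SLC39A14. The other 5 kept their direction and lost the call in at least 1: MT1F, SLC30A4, ATOX1, SLC39A8 and ATP7B. Without a filter on low values the adjusted p was 0.079 for MT1F, 0.079 for SLC30A4 and 0.064 for ATOX1, and with the GC and length correction it was 0.082 for SLC30A4. SLC39A13 became called where at least 5 FPKM on average was asked (0.046) and under voom (0.050). A minimum of 5 FPKM left 3402 genes called, with 3 members lower. Leaving out 1 library gave 2766 to 5303 genes, with 3 to 6 members higher and 3 to 5 lower. With the replicate block 4088 genes were called, 5 members higher and 4 lower, MT1F (adjusted p = 0.054) and SLC30A4 (0.060) losing the call. Same-numbered libraries deviated with correlations of -0.020, -0.074 and -0.040, and in 0 of 3 numbers was the own number the best partner. Of the 16 members with no call, 9 changed sign somewhere. With the GC and length correction the log2 fold change was 0.29 for ATP7A, 0.039 for SLC30A1, -0.074 for SLC30A3, 0.055 for SLC30A5, 0.018 for SLC30A9, 0.20 for SLC39A10, -0.090 for SLC39A3 and 0.11 for SLC39A9. With TPM scaling it was -0.029 for SLC30A3, -0.018 for SLC30A7 and -0.0021 for SLC39A3, with quantile normalization -0.050 for SLC30A3, and with median of ratios scaling 0.0088 for ATP7A. With 1 library left out it was -0.106 to 0.078 for ATP7A, -0.132 to 0.268 for SLC30A3, -0.054 to 0.164 for SLC30A7, -0.165 to 0.103 for SLC39A10 and -0.045 to 0.189 for SLC39A3. The cause was not tested.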
